A study of Drosophila melanogaster with 2 samples.

Results

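The genes described here are 33 Drosophila melanogaster genes that build the synapse and the electrical membrane of neurons, listed by name, with no measured value in the rule. All 33 names were found among the 17683 FlyBase genes of the main chromosome arms. X holds 6 of them, 2L holds 5, 2R holds 6, 3L holds 7, 3R holds 8 and chromosome 4 holds 1. They comprise 2 general neuronal markers, 9 genes of vesicle fusion and its control, 2 of the active zone, 9 ion channel genes, 2 receptor genes and 9 genes of transmitter synthesis and transport. The question asked was where CTCF, a zinc finger DNA-binding protein known from chromatin boundaries, lay at these genes.

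The data came from chromatin immunoprecipitation of whole embryos, 0 to 16 h old and of both sexes, sequenced from 2 biological replicates (numbers 2 and 3 in the labels). The flies were a transgenic line with stable expression of CTCF fused to GFP at its C terminus, and chromatin was pulled down with an antibody to GFP. Both replicates belong to 1 group, CTCF-GFP embryo. No sample without the tag and no second condition was used here, so the results are a description with no test across samples. The embryos hold all tissues, and neurons are only some of their cells. Few cells with a bound site and weak binding in many cells cannot be told apart.

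Neurons fire when voltage-gated channels open, and they signal when calcium entry makes synaptic vesicles fuse with the membrane through SNARE proteins. The transmitter is made by dedicated enzymes, loaded into vesicles by transporters and received by channels on the next cell. Many of these genes are long, with large introns and several alternative starts. CTCF recognises a short core sequence, and insulators that hold it have been mapped throughout the fly genome.

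Tagged CTCF had a reproducible summit within 1 kb of a transcript start at 7 of the 33 genes, namely eag, nrv3, elav, Syx1A, Sh, sei and Shab; 24.4% of all genes had one. A further 5 genes, Syn, Shal, Shaw, ChAT and para, had a summit only inside the gene body, more than 1 kb from each of their own starts. Sh and eag had both kinds. Of all genes 5.83% had such a body summit. The remaining 21 genes had neither. In all there were 17 summits, 7 at starts and 10 in bodies. Reproducible means the list that the authors thresholded by the irreproducible discovery rate from both replicates. It holds 5443 peaks, and the signal of its peaks, a score of the peak caller with no stated scale, runs from 195 to 89235 with a median of 345. A replicate's own signals were lower than those of the list made from both, so they are compared only with each other.

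The core searched for was A, G, A or G, G or T, then GGCGC, on both strands and wholly within 50 bp of the summit. It stood at 4 of the 17 summits (23.5%), at eag, Syn and 2 sites in Sh, and at 12.7% of all 5443 reproducible summits. With at most 1 mismatch it was at 6 of the 17 (35.3%), against 24.8% of all summits. Of the 4 exact sites, 3 were in bodies and 1 at a start. The shares over all summits were not split by position, so the mix of positions may differ. For comparison, 0.225% of 101 bp windows centred on an annotated transcript start held the exact core and 4.02% held it with at most 1 mismatch. The sites are printed here from the RefSeq assembly of dm6, 5′ to 3′ on the strand of the core, with the core in capitals and 10 bases on each side. They are shown because the 5 strongest of the 17 summits lie on the first 5 sites, and para is the weak summit with a near match. All coordinates are on dm6.
eag start (chrX:14955296-14955324, minus strand): cccacccgctAGGTGGCGCtactcacgtt
Syn intron (chr3R:10203762-10203790, plus strand): gcctgacaacAGATGGCGCtttgtatcat
Sh intron, 10.9 kb inside the first start (chrX:18052312-18052340, minus strand): gacggccgctAGGTGGCGCtgtaatcaac
Sh intron, 94.9 kb inside the first start (chrX:17968357-17968385, plus strand): ctcagcgcacAGAGGGCGCcaccaaaagc
nrv3 start (chr2L:21379964-21379992, plus strand, 1 mismatch): tctgtcatatAGAGGTCGCaaacgaagct
para intron (chrX:16467904-16467932, plus strand, 1 mismatch): tatctccgctTGATGGCGCtagcaatggc
The mismatches, counted from the 5′ end of the core, are G6T at nrv3 and A1T at para. The nrv3 summit had a second copy with 1 mismatch, 41 bp away. The 4 exact sites at eag, Syn and Sh had signals from 1492 to 10887. The 11 summits with neither an exact nor a 1-mismatch copy had signals from 205 to 850 with a median of 278. The ranges do not overlap, and the summits with a 1-mismatch copy, at nrv3 (3771) and para (230), fell on either side of the gap. By gene, 3 of the 33 had a start or body summit with the exact core (9.09%), against 3.4% of all genes and 3.77% of protein-coding genes. These shares were not weighted by gene length, and the 33 genes are long. Summits counted regardless of a core were more frequent at longer genes. Those with the exact core were not counted by length, so the part of length in the higher share was not tested. Over all reproducible peaks the median was 2137 with the exact core and 314 without it.

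Both general neuronal markers had a summit at a start. nrv3, which encodes a beta subunit of the sodium-potassium pump (FBgn0032946, 2L from 21380000 to 21393319), had a signal of 3771 (1736 and 2043 in replicates 2 and 3). The summit lay 30 bp upstream of the first start and ranked 542 among the 5443. elav encodes the RNA-binding protein used as a marker of neurons (FBgn0260400, X from 509235 to 523226, minus strand). It had a signal of 850 (438 and 402 in replicates 2 and 3), 275 bp upstream of a start. That start is also the start of the noncoding RNA gene lncRNA:enrr, and the gene arg overlaps the site, so the peak cannot be assigned to elav alone. The elav summit carried no core, even with 1 mismatch.

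Of the 17 summits, 11 lay at 7 of the 9 channel genes, which with 473 kb also have the largest total length of the roles. At their lengths 64.4% of protein-coding genes had a summit at a start or in the body, or 5.79 of 9. The strongest start summit of all 33 genes was at eag, a potassium channel gene (FBgn0000535, X from 14955477 to 15009989, plus strand), with a signal of 9129 (4315 and 4824 in replicates 2 and 3). It lay 155 bp upstream of the only start and 222 bp from the start of CG9030 on the opposite strand, and it ranked 351. It also held DRE, the motif TATCGATA, which 2.83% of all summits hold. Motif 1 (GGTCACAC, in 2.48% of all summits) and GAGAG (in 11.1%), each sought on both strands, were at none of the 17 summits. The same listed interval carries a stronger summit further upstream, at 1402 bp from the eag start and 48 bp past the 3′ end of the gene CG9030. The nearest start to that summit was that of lncRNA:CR44831, at 378 bp. The signal of the summit was 22577 (10894 and 11703 in replicates 2 and 3), and an exact core stood beneath it as well.
eag upstream (chrX:14954076-14954104, plus strand): cacaacatccAGGTGGCGCtgtttttgtt
When overlapping peaks were merged and only the strongest summit of each was kept, eag lost its start summit to that neighbour. Another summit, inside eag and 5645 bp from its start, was weak, with a signal of 205 (97 and 105 in replicates 2 and 3).

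**Figure D1:**
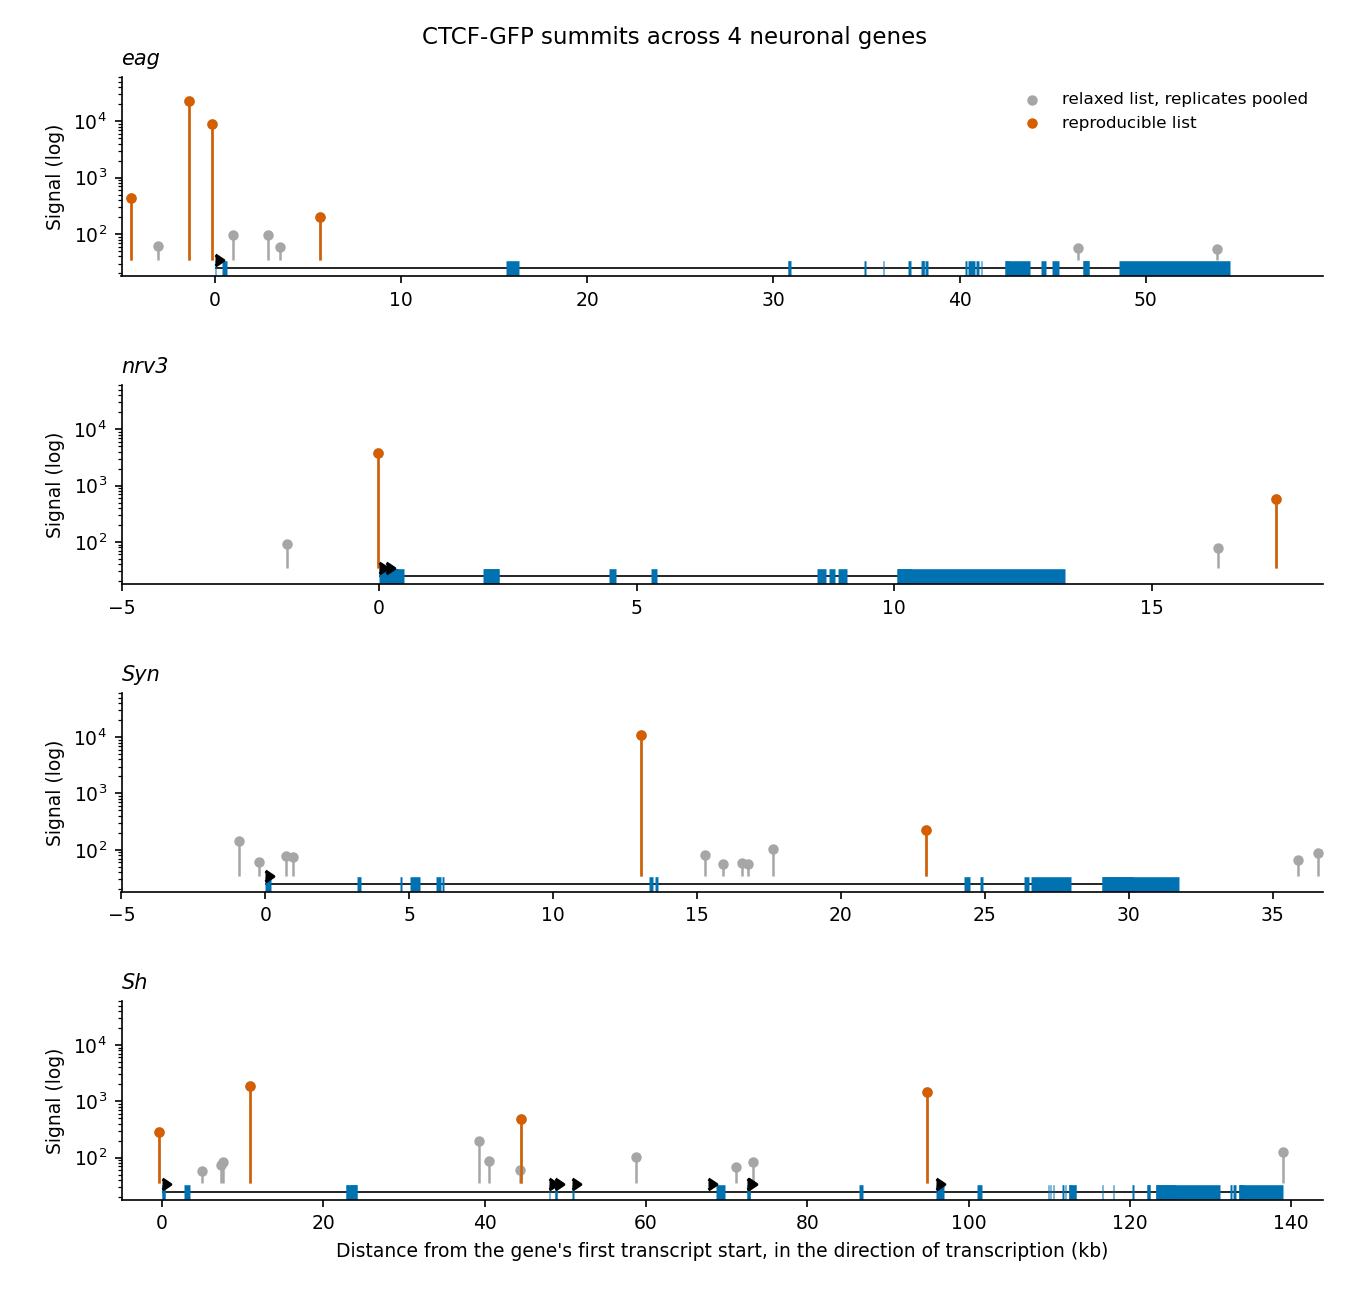
Summits across eag, nrv3, Syn and Sh, with position as distance in kb from the first transcript start in the direction of transcription and height as signal on a log axis. Blue boxes are exons, black arrowheads are transcript starts, orange points are reproducible summits and grey points are summits of the relaxed list from both replicates pooled; at eag the 2 highest summits (22577 and 9129) lie just upstream of the start, and Sh has 3 reproducible summits in its body.

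Sh, the Shaker potassium channel gene (FBgn0003380, X from 17924307 to 18063247, minus strand), is 139 kb long with 8 distinct starts, and had 4 summits, more than any other of the 33 genes. The one 10.9 kb inside the first start reached 1853 (831 and 1023 in replicates 2 and 3) and had an exact core 18 bp from the summit. The one 94.9 kb inside had a signal of 1492 (645 and 846 in replicates 2 and 3), with an exact core 2 bp from the summit, and stood 1148 bp upstream of an internal start of Sh. A further intronic summit 44.6 kb inside had a signal of 484 (223 and 243 in replicates 2 and 3) and no core.

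The start summit of Sh was weak and uneven between replicates. Its signal was 290, with 69.9 in replicate 2 and 220 in replicate 3, the widest gap among the summits matched in both replicates (1.65 on the log2 scale, replicate 3 over replicate 2). It lay 328 bp upstream of the first Sh start and 908 bp from the start of Dhc16F, a dynein heavy chain gene. In replicate 2 it ranked 8636, below the 5443 strongest, and in replicate 3 it ranked 2233.

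Other channel genes had weak summits. Shab, a potassium channel gene (FBgn0262593, 3L from 2895017 to 2959579, plus strand), had a signal of 241 (85.3 and 147 in replicates 2 and 3) at 983 bp upstream, just inside the 1 kb limit. Shaw, from the same channel family (FBgn0003386, 2L from 3718185 to 3729145, plus strand), was the first gene outside that limit, with an intronic summit of signal 278 (125 and 160 in replicates 2 and 3) at 1441 bp. Shal, another of that family (FBgn0005564, 3L from 19566851 to 19584568, minus strand), had an intronic summit of 565 (280 and 270 in replicates 2 and 3), 15.4 kb inside its start and 4077 bp from the start of the microRNA gene mir-9a.

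At sei, an ERG-type potassium channel gene (FBgn0003353, 2R from 24047411 to 24053035, plus strand), the summit had a signal of 269 and lay 152 bp upstream of the internal start. The nearest replicate summits had signals of 145 in replicate 2 and 116 in replicate 3, at 101 and 103 bp, just beyond the 100 bp used to match lists. The start of the gene gammaSnap1 was closer, at 148 bp. para, the voltage-gated sodium channel gene (FBgn0285944, X from 16455027 to 16533096, minus strand), had an intronic summit of signal 230 (91.8 and 146 in replicates 2 and 3) 65.2 kb inside its first start. Its nearest summit to a start was 2327 bp upstream, with a signal of 361. The calcium channel gene cac and the calcium-activated potassium channel gene slo had neither kind of summit, and the nearest were 17.3 and 73.5 kb from their starts.

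Vesicle fusion genes had summits at 2 of 9. Syn encodes synapsin, a phosphoprotein on synaptic vesicles (FBgn0004575, 3R from 10190689 to 10222442, plus strand). It held the strongest summit of the 33 genes, with a signal of 10887 (5198 and 5701 in replicates 2 and 3), in an intron 13.1 kb inside its start. Timp, the gene of a metalloprotease inhibitor, lies within Syn on the opposite strand, and the summit was 129 bp past the 3′ end of Timp. The second Syn summit, with a signal of 221 (99.3 and 123 in replicates 2 and 3), was 623 bp from the start of Timp, so it may be counted for either gene. Syx1A encodes the membrane SNARE syntaxin (FBgn0013343, 3R from 24101600 to 24105763, minus strand). It had a summit 80 bp upstream of its start, with a signal of 314 (118 and 197 in replicates 2 and 3), inside the overlapping gene eIF4EHP.

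The other vesicle genes had no reproducible summit at a start or in the body. comt, which encodes the NSF ATPase that takes SNARE complexes apart, had one 1734 bp from its start with a signal of 386, 104 bp from the start of mew. The distances were 7.51 kb for nSyb, the vesicle SNARE, 10.7 kb for the vesicle GTPase gene Rab3 and 24.7 kb for cpx, which encodes complexin. They were 24.99 kb for the priming factor unc-13 and 25.5 kb for the calcium sensor Syt1. Snap25, a SNARE gene that spans 225 kb on 3L (24074180 to 24299205), was the farthest, with its start 505 kb from any reproducible summit. Whether reads could be mapped there as well as elsewhere was not examined.

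**Figure D2:**
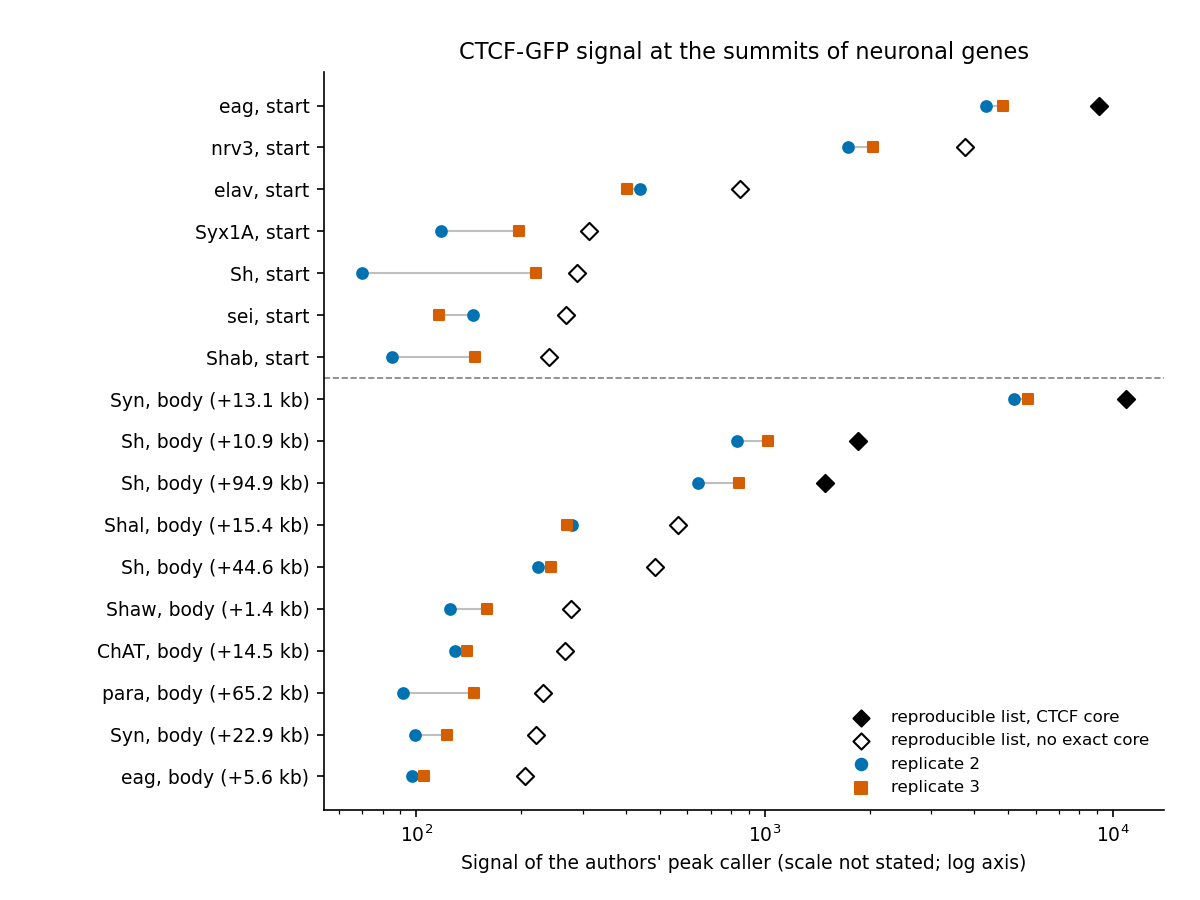
Signal of the 17 summits on a log axis, start summits above the dashed line and body summits below it with their distance from the first start. Diamonds are the reproducible list (filled with an exact CTCF core, open without), circles replicate 2 and squares replicate 3 (nearest summit of each replicate's list); eag, Syn and 2 Sh summits carry the core, and Sh at its start has the widest gap between replicates.

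The 2 active zone and 2 receptor genes had no summit of either kind. At their lengths 61.9% and 67.9% of protein-coding genes had one, or 1.24 and 1.36 of 2. Rim, which encodes a scaffold that tethers vesicles near calcium channels (FBgn0053547, 3R from 17872748 to 17916578, minus strand), came closest. A strong summit stood 2607 bp upstream of its start, with a signal of 9112 (4371 and 4770 in replicates 2 and 3), 647 bp from the nearest start, that of cpo. It carried the core with 1 mismatch.
Rim upstream (chr3R:17919133-17919161, minus strand, 1 mismatch): gcgcgccggcAGGTGTCGCtttagttgta
brp, which encodes the active zone scaffold Bruchpilot, was 25.3 kb from a summit. The GABA receptor gene Rdl was 14.6 kb away and the acetylcholine receptor gene nAChRalpha1 20.4 kb away.

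Genes of transmitter synthesis and transport had no start summit at any of 9 genes and a body summit at 1. That was ChAT, which encodes choline acetyltransferase (FBgn0000303, 3R from 18705501 to 18732344, plus strand), with an intronic signal of 267 (129 and 140 in replicates 2 and 3). The summit lay 14.5 kb inside the start, within the noncoding RNA gene lncRNA:CR46265 and 353 bp from that gene's start. VAChT, the vesicular acetylcholine transporter gene nested at the same locus, shares that start, so ChAT and VAChT are not independent. DAT, the dopamine transporter gene, was closest to a summit at 5.95 kb. The vesicular monoamine transporter gene Vmat was at 7.23 kb, ple (tyrosine hydroxylase) at 10.1 kb and Gad1 (glutamate decarboxylase) at 12.7 kb. VGlut (vesicular glutamate transporter) was at 19.4 kb, Ddc (dopa decarboxylase) at 44.8 kb and the serotonin transporter gene SerT at 47.0 kb.

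**Figure D3:**
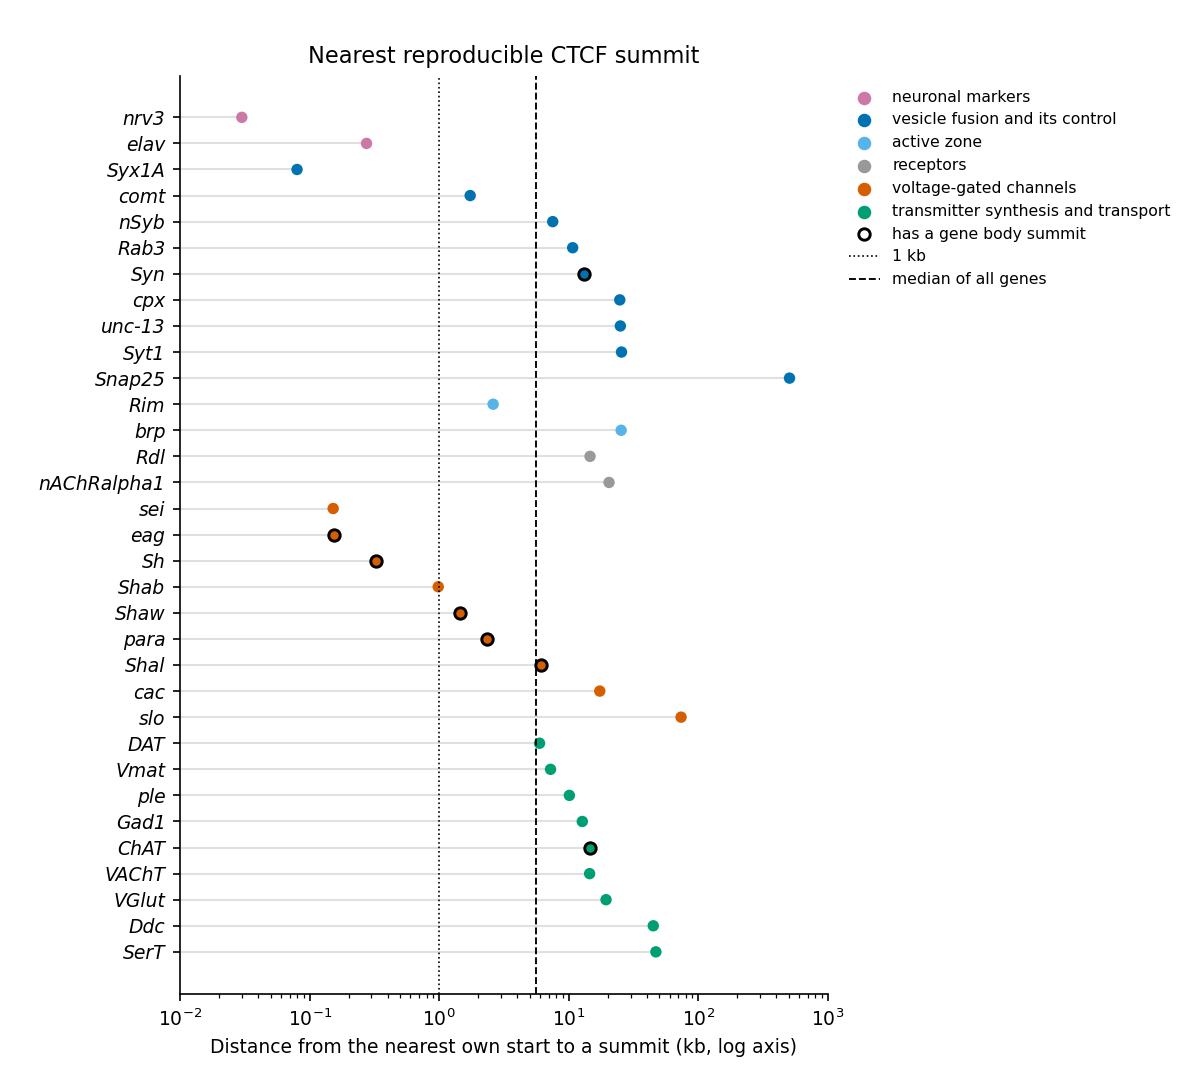
Distance in kb (log axis) from each gene's nearest own start to a reproducible summit, grouped and coloured by role, with a black ring where the gene body holds a summit. The dotted line marks 1 kb and the dashed line the median of all genes, 5.63 kb; all 9 transmitter genes lie to the right of the dashed line, and 4 of the 9 channel genes lie left of the dotted one.

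Across the 33 genes the median distance from a start to the nearest summit was 10.7 kb, with quartiles of 1.73 and 20.4 kb. Over all 17683 genes it was 5.63 kb, with quartiles of 1.09 and 15.6 kb. Neuronal genes over 10 kb from a summit numbered 18 of 33 (54.5%), against 36.2% of all genes.

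The share of neuronal genes with a start summit, 21.2% (7 of 33, 95% Wilson interval 10.7 to 37.8%), was close to the 24.4% of all genes and the 27.3% of protein-coding genes. The interval covers counting error over genes only. These genes are long, with a median of 21.1 kb against 1.71 kb for all genes, and longer genes had start summits more often. Of all genes 17.4% had one below 2 kb in length, against 42.5% between 20 and 50 kb. Weighted by the length classes of the 33, the share over all genes was 39.5%, or 13.02 genes. None of the 10 neuronal genes between 20 and 50 kb had a start summit, and 3 of the 7 of 50 kb or more did, where the share over all genes was 42.0%. In the shorter classes the neuronal counts were 1 of 3 between 2 and 5 kb (28.6% of all genes), 1 of 6 between 5 and 10 kb (35.5%) and 2 of 7 between 10 and 20 kb (40.6%).

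Neuronal genes also have more starts, on average 2.24 distinct ones against 1.33 over all genes. Counted per start, 8 of 74 (10.8%, 95% Wilson interval 5.58 to 19.9%) had a summit within 1 kb, against 24.2% of the starts of all genes. The interval treats starts as independent, which they are not, so it is too narrow. Sh and cpx supply 8 starts each, the 1 nrv3 summit counts for 2 starts, and ChAT and VAChT share a start. The neuronal starts were not matched to others for transcription in the embryo, and its part in the difference was not tested.

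Body summits were more frequent than over all genes, but not when gene length was weighted. A body summit was present in 7 of 33 genes (21.2%), against 5.83% of all genes and 7.03% of protein-coding genes, but in 33.6% when the classes of gene length were weighted as in the neuronal genes. The 10 body summits fell in 1.08 Mb of body, or 0.0925 per 10 kb (95% exact Poisson interval 0.0444 to 0.170). All genes together had 0.220 per 10 kb (0.210 to 0.230). Among genes between 10 and 20 kb the neuronal ones had 0.248 per 10 kb (0.0301 to 0.897), close to the 0.267 of protein-coding genes. Between 20 and 50 kb they had 0.0977 per 10 kb (0.0202 to 0.286), against 0.259 in protein-coding genes. At 50 kb or more they had 0.0765 (0.0248 to 0.179), against 0.195. That class includes Snap25, with 224 kb of body and no summit, and its value was not computed without Snap25. Over all lengths the neuronal value without Snap25, which alone makes up 225 kb, was 0.117. By class of length, body summits were in none of 3 neuronal genes between 2 and 5 kb (2.27% of all genes) and none of 6 between 5 and 10 kb (9.74%). They were in 2 of 7 between 10 and 20 kb (23.8%), 2 of 10 between 20 and 50 kb (43.2%) and 3 of 7 of 50 kb or more (63.6%). Genes below 2 kb, of which the neuronal set has none, had one in 0.323% of cases. All 10 body summits were intronic, and 2 of them, in Syn and ChAT, lay within 1 kb of another gene's start.

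Counting start and body summits alike, 12 of 33 neuronal genes (36.4%, 95% Wilson interval 22.2 to 53.4%) had one, against 27.4% of all genes and 30.9% of protein-coding genes. At the same lengths 56.1% of protein-coding genes had one, or 18.5 of 33. The roles stood on different sides of that value. Channel genes had a summit at 7 of 9, against 5.79 at their lengths. Transmitter genes had one at 1 of 9, against 4.39, and vesicle fusion genes at 2 of 9, against 4.66. With so few genes per role, and with ChAT and VAChT sharing a locus, these counts are a description only. By arm, 4 of 6 neuronal genes on X had a summit (29.7% of all genes there), and 8 of 27 elsewhere (27.0%). These shares by arm were not weighted by gene length, so they do not compare X with the other arms. On X, para, Sh, eag and cac are each over 50 kb, a length at which 73.9% of protein-coding genes had either summit.

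**Figure D4:**
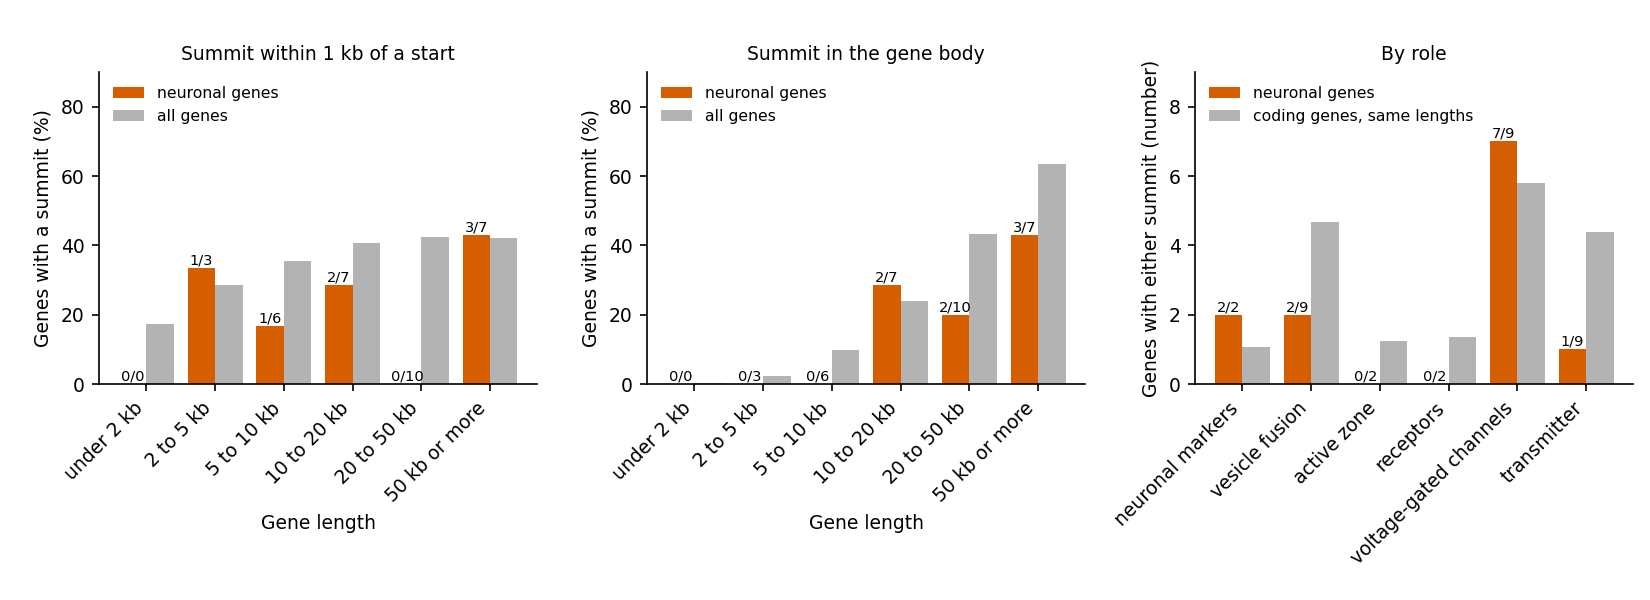
Left and middle panels give the percentage of genes that have a summit at a start (within 1 kb) or in the body, by gene length, for the neuronal genes (orange, counts above the bars) and for all genes (grey). The right panel gives the number of neuronal genes of each role with either summit beside the number that protein-coding genes of the same lengths would give; channels had 7 of 9 and transmitter genes 1 of 9.

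Copies of the exact core were as frequent in the bodies of the neuronal genes as over the arms, and some had a summit. With VAChT counted within ChAT, the bodies held 25 copies, or 2.17 per 100 kb, against 2.19 per 100 kb of the arms. A reproducible summit lay over 3 of the 25 (12.0%, 95% Wilson interval 4.17 to 29.96%), against 24.7% of the 2929 copies on the arms. The interval holds the share of the arms, which also counts copies outside gene bodies. The copies under the summits upstream of eag lie outside the gene and are not among the 25. The 3 with a summit were 2 of the 3 copies in Sh and the 1 in Syn. In the relaxed list from both replicates pooled the number was 5 of 25, against 28.8% of all copies. Snap25 held 5 copies, Shab 4, cpx 2 and para 2, none with a summit. No copy lay in the bodies of 18 genes, among them nSyb, Syt1, brp, Rdl, slo and cac.

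Below the reproducible threshold, some of the remaining starts had weak summits. Each replicate's relaxed list holds 30000 peaks, background included. Of the 26 neuronal genes without a reproducible start summit, 13 had a relaxed summit within 1 kb in both replicates, against 36.2% of all genes without one. In replicate 2 it was 15 of the 26, against 44.9% of all such genes, and in replicate 3 it was 14, against 45.1%. These shares were not weighted by gene length or by number of starts. The neuronal set as a whole has longer genes and more starts per gene than all genes. The part of length and of starts in the higher shares was not tested, so they do not show more weak binding at neuronal starts. By pooled signal the highest were at Ddc (82.7 and 107 in replicates 2 and 3), comt (147 and 76.1 in replicates 2 and 3) and slo (108 and 87.7 in replicates 2 and 3). The order differed between replicates: in replicate 3, Shaw (94.0) exceeded slo and comt. The pooled signals were 195 at Ddc, 189 at comt and 167 at slo. The pooled signal of 195 at Ddc stood just under the weakest reproducible peak. No relaxed list held a summit near a start of brp, Rdl, para, ChAT, VAChT, VGlut, ple, Snap25, Rab3 or nAChRalpha1.

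The reproducible list was itself thresholded by the irreproducible discovery rate from both replicates, so a match in both is no measure of agreement at these genes. A place in the list did not require a high rank in each replicate. In replicate 2 the start summits of Sh and Shab ranked 8636 and 6620. Of the 17 summits, 16 were matched within 100 bp in both replicates, and replicate 3 exceeded replicate 2 by a median of 0.27 on the log2 scale (SD 0.43 over summits). Over the 5233 matched summits of the whole list the median was 0.10 and the SD 0.42. Ratios at the neuronal summits ran from -0.12 at elav to 1.65 at the Sh start.

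A wider list of 125 further genes of neuronal function, with none of the 33 among them, had start summits at 36 (28.8%), against 38.7% of protein-coding genes of the same lengths. Body summits stood in 27 (21.6%), against 28.7% at these lengths, and either kind at 51 (40.8%), against 52.3%.

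Start summits were at a higher share than in protein-coding genes of the same lengths in 2 groups of the wider list. They stood at 11 of 22 further vesicle cycle genes (36.6% at their lengths), led by Csp, a vesicle chaperone gene (signal 15960), and AP-2alpha, a clathrin adaptor gene (8022). They stood at 5 of 10 further genes listed as neuronal markers (41.3% at their lengths), a difference of about 1 gene. That group was listed by name, and whether its genes are confined to neurons was not tested. Its start summits were led by those of the sodium-potassium pump genes nrv2 (36799) and Atpalpha (34137), both with the exact core. In replicate 2 they had 17667 and 16089, and in replicate 3 19193 and 18151.

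The other groups had start summits at lower shares than genes of the same lengths, though only slightly lower for the active zone and adhesion. They were at 5 of 38 receptor genes (13.2%, against 39.0%), led by the glutamate receptor gene mGluR (639) and the acetylcholine receptor gene nAChRalpha4 (567). They were at 2 of 16 transmitter genes (12.5%, against 33.96%), the GTP cyclohydrolase gene Pu (433) and the glutamine synthetase gene Gs2 (262). Among 26 further channel genes 8 had one (30.8%, against 40.1%), led by the potassium channel genes Irk1 (1267) and SLO2 (1231). Of 13 genes of the active zone and adhesion 5 had one (38.5%, against 42.2%), led by the scaffold gene CASK (6609) and the neuroligin gene Nlg3 (2164). Body summits of the transmitter genes went the other way, at 4 of 16, against 10.9% at their lengths. The further genes listed as neuronal markers were also higher, at 5 of 10, against 36.5%. Vesicle cycle genes were close to their lengths, at 5 of 22, against 20.4%. Body summits were at lower shares in the active zone and adhesion (1 of 13, against 42.2%), receptor (5 of 38, against 31.2%) and channel groups (7 of 26, against 33.4%).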

How the data were processed

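Peak lists of 2 replicates of CTCF-GFP embryos were used. The authors deposited, on dm6 per their names, a reproducible list, a pooled relaxed list and 1 relaxed list per replicate. The deposited signal is a score with no stated scale, used to rank and describe peaks. Per the deposited description, each relaxed list rests on aligned reads set against a control. The sources used here give no aligner, caller, version or read depth. Per the labels, sonication gave fragments sized 200 to 800, with no unit stated. The dm3 lists were not used.

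Genes came from Ensembl release 115, which shares dm6 coordinates. Summits were assigned to each gene with a start within 1 kb, then to gene bodies, leaving out 1 kb around the gene's own starts. Replicate summits were matched within 100 bp. No test was run, because 1 group of 2 samples allows none. The genes, role groups, wider list (125 of 131 names found) and naming rule were chosen with earlier results of these data known. All members with a start summit, an exact core or a body summit were named, and the 2 strongest start summits per group of the wider list. Alternatives were other distances, stronger peaks, single replicates, merged peaks, other backgrounds and other motif settings; leaving out Snap25 or VAChT was added after the data were examined. Counting was checked on simulated data. Software was Python 3.11.15, with matplotlib 3.10.9, scipy 1.17.1, numpy 2.4.6 and pandas 2.3.3.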

Additional observations from a re-analysis of the deposited data

How the results depend on the processing

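Of the 33 neuronal genes, 7 had a start summit. At most 200 bp from a start there were 4 (14.6% of all genes), and with only the 2721 strongest peaks 3 (11.7% of all genes), namely eag, nrv3 and elav. With those strongest peaks the share of starts was 5.41% (11.3% over all genes), genes with a body summit numbered 3 (3.73% of all genes), and body summits came to 0.0463 per 10 kb, against 0.117 for all genes. With 1 mismatch allowed, genes with a core summit numbered 5 (6.87% of all genes) instead of 3 (3.4%). Leaving out a replicate gave 7 to 8 genes with a start summit, 10.8 to 12.2% of starts, 5 to 7 genes with a body summit, 0.0648 to 0.102 body summits per 10 kb, and 3 genes with a core summit each time. Without replicate 3, Sh and Shab lost their start summits, slo and comt gained one, and para and eag lost their body summits. In replicate 2 the lost summits ranked 8636 (Sh), 6620 (Shab), 6011 (para) and 5615 (eag), below the 5443 strongest. Each replicate's own list is relaxed and includes background, so these settings are not a reproducible list remade without a replicate. Without replicate 2, Ddc gained a start summit. The body density was below that of all genes in all 8 other settings run, among them 0.117 per 10 kb when Snap25 was left out. Read depth is unknown, so a missing summit may lie below detection. The lists come from 1 tagged line, and binding without the tag was not analysed here. No paired analysis was possible because the study has 1 group.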
